A study of Homo sapiens with 12 samples.

Results

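The genes described here are 10 regulators of the G1 phase of the cell cycle: the D-type cyclins CCND1, CCND2 and CCND3, the cyclin-dependent kinases CDK4 and CDK6, the kinase inhibitors CDKN1B, CDKN2A and CDKN2C, the pocket protein gene RB1 and the transcription factor gene MYC. They were chosen by name for their role, with earlier results of these data known, and are 10 of the 58381 genes in the tables. All 10 were among the 15944 genes with enough reads to be tested. Polyadenylated RNA was sequenced from 4 sublines of HMC-1, an established human mast cell leukaemia line whose growth is driven by mutant forms of the stem cell factor receptor KIT. HMC-1.1 carries V560G, a mutation in the juxtamembrane region of KIT. HMC-1.2 carries V560G together with D816V, a mutation in the kinase domain. HMC-1.3 was made from HMC-1.2 by CRISPR/Cas9 repair of V560G, which leaves D816V alone, and was profiled as clone 1 and clone 2, each grown from 1 cell. Each of the 4 groups had 3 libraries from wells plated in parallel, so a p-value measures the spread between cultures of 1 line or clone, and a clone cannot be told apart from the repair it carries. The labels name no treatment.

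D-type cyclins bind CDK4 or CDK6 in response to growth signals, and the active kinases phosphorylate the retinoblastoma protein encoded by RB1, which then releases E2F transcription factors and lets the cell copy its DNA. The inhibitors CDKN2A and CDKN2C block CDK4 and CDK6 directly, whereas CDKN1B (p27) blocks the later cyclin E complexes and is itself held by cyclin D complexes. MYC, induced by receptor kinases such as KIT, drives growth genes, and many of its targets carry the E-box sequence CACGTG near their start.

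Library totals ran from 29225900 to 43181402 expected counts. KIT (group means from 356 to 450 fragments per kilobase of exon, scaled to the mapped total, FPKM) and GATA2 (213 to 240 FPKM), the receptor and a transcription factor of mast cells, were abundant in all groups and not called. Other mast cell markers differed: of 9 tested, 4 were called lower and 1 higher in each comparison with HMC-1.2, where 16.5% to 20.0% of all genes were called. The tryptase gene TPSAB1 averaged 592 FPKM in HMC-1.2 and 29.4 to 44.2 FPKM elsewhere (log2 fold changes -3.83, -4.41 and -4.07 in clone 1, clone 2 and HMC-1.1), and MS4A2, an IgE receptor subunit, was called lower in all 3 at 0.353 FPKM or less. FCER1A, another subunit, fell from 1.09 FPKM in clone 1 (-2.89) and HMC-1.1 (-2.83) and had a log2 value of 0.06 in clone 2 (adjusted p = 0.87), and CPA3, a mast cell protease, rose in all 3 (1.21, 1.78 and 1.2). The 10 markers summed to 2257 to 2292 FPKM in HMC-1.2 and to 1550 to 1661 FPKM over the libraries of the other groups. Of 8 markers of other cell types, only HBB and COL1A1 had enough reads to be tested. The 8 markers summed to between 0.72 and 1.32 FPKM in HMC-1.2, between 1.90 and 2.59 in HMC-1.1, 2.82 to 3.35 in clone 1 and 2.11 to 4.07 in clone 2, mostly from HBB, a haemoglobin gene (log2 fold changes against HMC-1.2 of 1.95 in HMC-1.1 and 2.34 and 2.12 in clones 1 and 2), with 1 to 3 of them at 0 in every library of a group (MS4A1 in 3 of the 4 groups). COL1A1, a collagen gene, was called lower from its counts (-1.0, -1.11 and -1.01 in clone 1, clone 2 and HMC-1.1), although its mean FPKM was 0.213 in HMC-1.1 and 0.183 in HMC-1.2. The part of these markers in the results was not tested.

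Levels in these cells were dominated by CDK4 and CCND3. CDK4 had the highest mean FPKM of the 10 genes in every group and ranked between 180 and 372 among all genes, of which 12724 to 12998 per group reached 1 FPKM. CCND3 ranked between 415 and 664, and MYC between 713 and 1131. At the other end, CDK6 stood at 0.837 FPKM in HMC-1.2 and at 2.02 to 2.5 FPKM in the other groups, and CCND1 at 1.34 FPKM in clone 1 and 1.35 FPKM in HMC-1.1. Between these ends, mean FPKM ran from 8.51 to 14.3 for CDKN2C, 23.3 to 46.7 for CDKN1B, 27.9 to 36.6 for CCND2, 37.0 to 62.7 for CDKN2A and 40.6 to 45.0 for RB1.

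**Figure D1:**
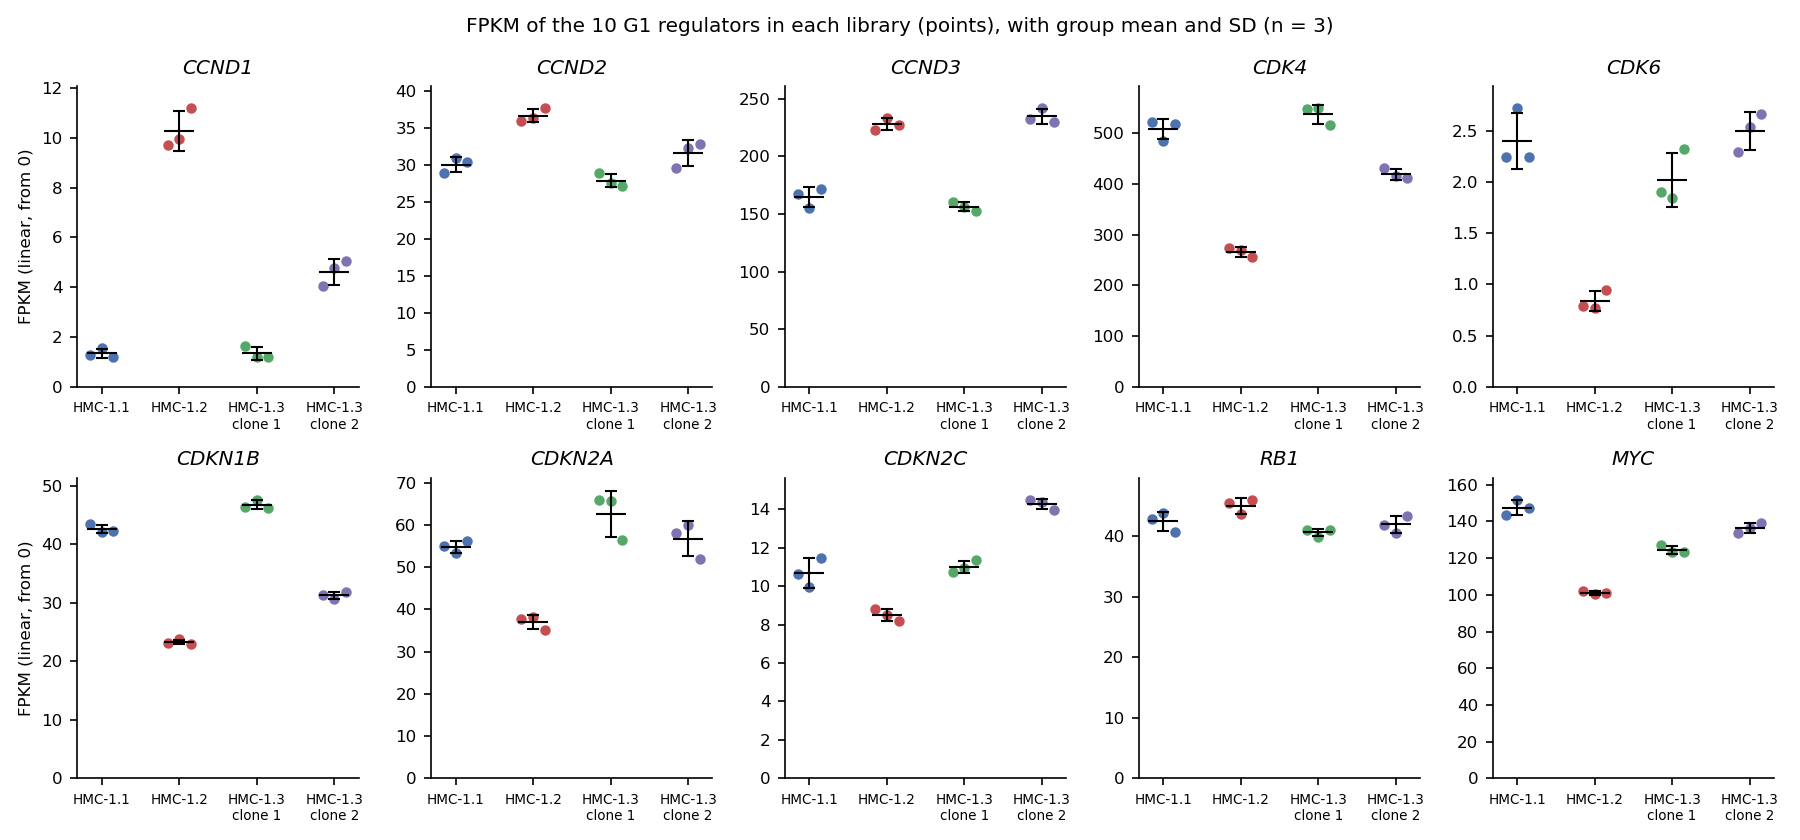
FPKM of each of the 10 genes (linear axes that start at 0, 1 panel per gene) in the 12 libraries, with points for libraries and bars for the group mean and SD (n = 3). HMC-1.2 was the group with the highest CCND1 and CCND2 and the lowest CDK4, CDK6, CDKN1B, CDKN2A, CDKN2C and MYC, and RB1 varied little.

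Changes were called where the Benjamini-Hochberg adjusted p of the quasi-likelihood test of edgeR was under 0.05 and the fold change over 1.5. Against HMC-1.2, 6 of the 10 genes changed in clone 1 (4 higher and 2 lower), where 20.0% of all tested genes were called, 11.8% higher and 8.18% lower. In clone 2, 5 of the 10 changed (4 higher and 1 lower), against 16.5% of all genes, 7.98% higher and 8.51% lower. In HMC-1.1, 4 of the 10 changed (3 higher and 1 lower), against 17.6% of all genes, 10.1% higher and 7.52% lower. Without the fold limit, all 10 passed the adjusted p in clone 1 and HMC-1.1 and 9 of them in clone 2, where 59.4% (clone 1), 53.7% (HMC-1.1) and 48.5% (clone 2) of all genes did. The median absolute log2 fold change of the 10 genes was 0.62, 0.51 and 0.55 in clone 1, clone 2 and HMC-1.1, and that of all genes 0.29, 0.21 and 0.24. These comparisons use the same HMC-1.2 libraries and are not independent of each other. In bulk RNA, fewer cells that carry a transcript and less of it per cell cannot be told apart.

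**Figure D2:**
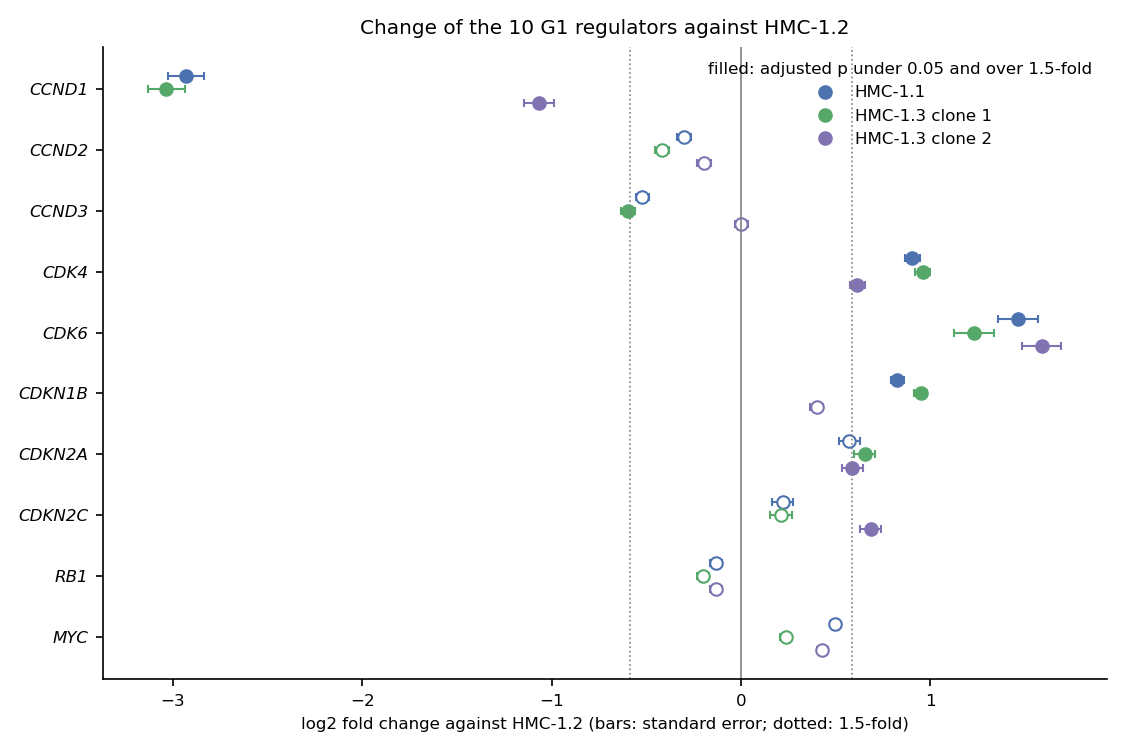
Log2 fold change of each gene against HMC-1.2 (x axis, 0 for no change, dotted lines at 1.5-fold) with its standard error as a bar, for HMC-1.1 and both HMC-1.3 clones. Filled circles passed an adjusted p of 0.05 and 1.5-fold, and CCND1 lies farthest from 0 in clone 1 (-3.03) and HMC-1.1 (-2.93), whereas CDK6 does in clone 2 (1.59).

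Among the D-type cyclins, CCND1 (cyclin D1, chromosome 11, 69641156 to 69654474 of GRCh38, plus strand) differed most. It measured 9.70, 9.93 and 11.2 FPKM in the HMC-1.2 libraries and 1.65, 1.18 and 1.2 in clone 1, with 1.29, 1.54 and 1.21 in HMC-1.1. Clone 2 lay between, at 4.04, 4.75 and 5.07 FPKM. The libraries of clone 1 and HMC-1.1 overlapped, and those of clone 2 and of HMC-1.2 overlapped with no other group. CCND1 fell 8.19-fold in clone 1 (log2 fold change -3.03, standard error 0.10, adjusted p = 3.1e-14), 7.63-fold in HMC-1.1 (-2.93, 0.09, 3.8e-14) and 2.1-fold in clone 2 (-1.07, 0.08, 3.7e-09). The counts behind these values were 149 to 1364 reads per library.

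Cyclin D1 also separated the clones. It was 3.91-fold higher in clone 2 than in clone 1 (log2 fold change 1.97, standard error 0.10, adjusted p = 3.7e-11), a comparison that does not use HMC-1.2 and in which 2 of the 10 genes, CCND1 and CCND3, and 12.6% of all genes were called. Clone 2 also exceeded HMC-1.1, by 1.86 on the log2 scale (standard error 0.10, adjusted p = 9.3e-11), the only call among the 10 genes in that comparison, where 8.19% of all genes were called. Clone 1 and HMC-1.1 differed by -0.10 (standard error 0.11, adjusted p = 0.57). In that comparison, edgeR called none of the 10 genes (0 by DESeq2, 5 at an unadjusted p under 0.05) and 1.01% of all genes, while 3 of the 10, CCND2, CDKN1B and MYC, passed the adjusted p alone, as 18.7% of all genes did, at log2 fold changes of -0.12, 0.13 and -0.26.

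CCND3 (cyclin D3, chromosome 6, 41934934 to 42050357, minus strand) measured 223, 233 and 227 FPKM in HMC-1.2 and 233, 242 and 229 in clone 2. Clone 1 stood at 160, 156 and 153 FPKM and HMC-1.1 at 167, 155 and 172. The libraries thus formed a higher pair of groups, HMC-1.2 and clone 2, and a lower pair, clone 1 and HMC-1.1, with overlap within each pair and none between them. CCND3 fell by 0.60 on the log2 scale in clone 1 (standard error 0.04, adjusted p = 3.3e-10), and clone 2 exceeded clone 1 by 0.60 (0.04, 6.9e-10). Both values lie just past 1.5-fold. The call in clone 1 was lost without HMC-1.2 replicate 2 (-0.57) or clone 1 replicate 3 (-0.58), and that between the clones without clone 1 replicate 3 (0.58) or clone 2 replicate 2 (0.58). In HMC-1.1 its log2 value was -0.52 (standard error 0.04, adjusted p = 2.2e-09), under 1.5-fold. Clone 2 differed from HMC-1.2 by 0.0021 (standard error 0.04, adjusted p = 0.97).

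CCND2 (cyclin D2, chromosome 12, 4269771 to 4305353, plus strand) had 35.9, 36.3 and 37.6 FPKM in HMC-1.2, above all 9 other libraries. Clone 1 had 28.9, 27.5 and 27.2 FPKM, HMC-1.1 28.9, 30.9 and 30.3, and clone 2 29.6, 32.3 and 32.9. The log2 fold changes of -0.42 in clone 1, -0.30 in HMC-1.1 and -0.19 in clone 2 passed the adjusted p (3.0e-08, 2.0e-06 and 0.00025) and stayed under 1.5-fold.

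Summed over the 3 D-type cyclins, mean FPKM was 275 ± 5.58 (SD, n = 3) in HMC-1.2 and 271 ± 6.81 in clone 2, against 186 ± 4.66 in clone 1 and 196 ± 8.05 in HMC-1.1. Cyclin D3 supplied most of the sum everywhere, with mean shares of FPKM from 82.9% in HMC-1.2 to 86.6% in clone 2. The share of cyclin D1 was 3.74% ± 0.27 for HMC-1.2, 0.69% ± 0.12 for HMC-1.1, 0.72% ± 0.13 for clone 1 and 1.71% ± 0.19 for clone 2. The share of cyclin D1 in HMC-1.2 did not overlap with that in any other group, which gives the smallest p that 3 against 3 libraries allow (two-sided exact permutation test, p = 0.10 in each of the 3 comparisons, adjusted p = 0.11 over 9 share tests), so no share could pass 0.05. With counts per kilobase of annotated exon in place of FPKM, the cyclin D1 share differed from HMC-1.2 by -6.14 percentage points in clone 1, in place of -3.01, and by -3.70 in clone 2, in place of -2.03. The cyclin D3 share differed by 1.89 points in clone 1, in place of 1.33, and by 5.24 in clone 2, in place of 3.69. The size of each share thus depends on the transcript length used.

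**Figure D3:**
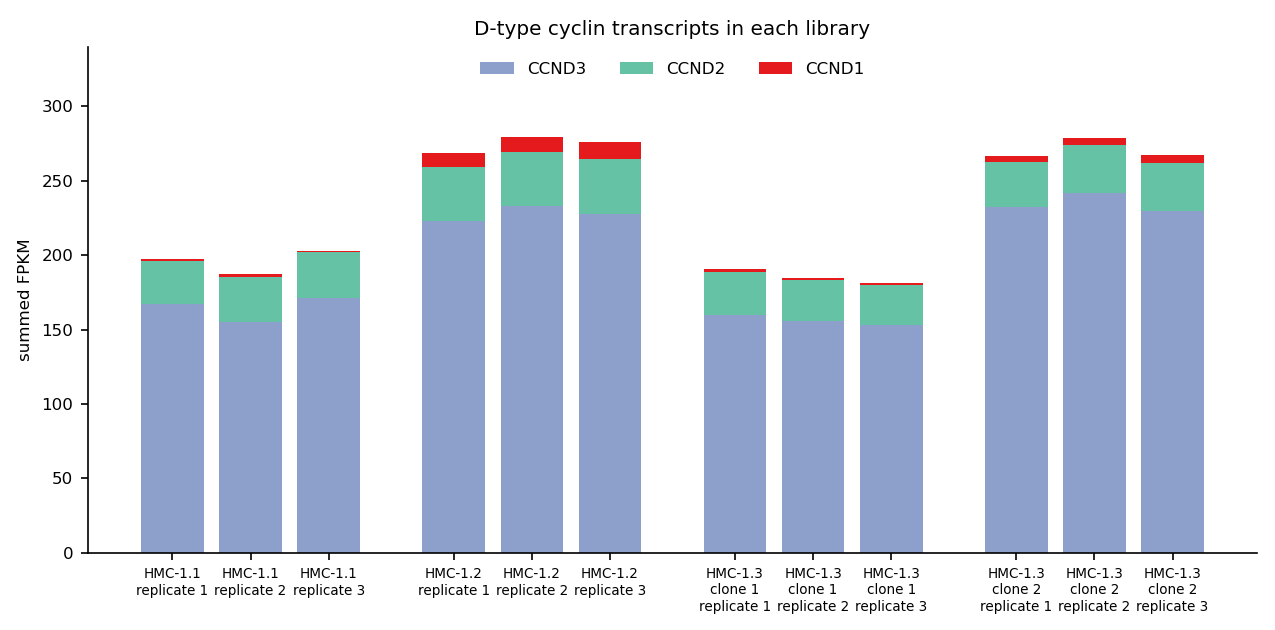
Summed FPKM of the D-type cyclins (y axis from 0) in each of the 12 libraries, split into CCND3, CCND2 and CCND1. The sum lay between 266.4 and 279.6 FPKM in the libraries of HMC-1.2 and clone 2 and between 181.3 and 203.1 FPKM in those of clone 1 and HMC-1.1, and the CCND1 part was widest in HMC-1.2.

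Both kinases that bind these cyclins were higher outside HMC-1.2. CDK4 (chromosome 12, 57747727 to 57756013, minus strand) measured 274, 270 and 256 FPKM in HMC-1.2, 431, 416 and 411 in clone 2, 522, 485 and 518 in HMC-1.1 and 548, 549 and 516 in clone 1. HMC-1.2 was lowest, clone 2 lay alone in the middle, and HMC-1.1 overlapped with clone 1. CDK4 rose 1.94-fold in clone 1 (log2 fold change 0.96, standard error 0.04, adjusted p = 2.7e-12), 1.87-fold in HMC-1.1 (0.90, 0.04, 7.0e-12) and 1.53-fold in clone 2 (0.61, 0.04, 1.2e-09). Against clone 1, clone 2 had a value of -0.35 (standard error 0.04, adjusted p = 2.0e-06), under 1.5-fold.

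CDK6 (chromosome 7, 92604921 to 92836573, minus strand) was far less abundant, with 0.79, 0.77 and 0.95 FPKM in HMC-1.2. Clone 1 had 1.90, 1.84 and 2.32 FPKM, HMC-1.1 2.24, 2.72 and 2.24, and clone 2 2.29, 2.54 and 2.66, so the last 3 groups overlapped and HMC-1.2 stood apart. CDK6 rose 3.01-fold in clone 2 (log2 fold change 1.59, standard error 0.10, adjusted p = 6.9e-10), 2.76-fold in HMC-1.1 (1.46, 0.10, 2.4e-09) and 2.34-fold in clone 1 (1.23, 0.11, 2.2e-08). Despite the larger fold change, CDK6 made up 0.31% to 0.59% of the summed CDK4 and CDK6 FPKM by group mean. The mean share exceeded that in HMC-1.2 by 0.06, 0.28 and 0.16 percentage points for clone 1, clone 2 and HMC-1.1 with FPKM, and by 0.15, 0.71 and 0.35 with counts per kilobase of annotated exon. With FPKM, the two-sided exact permutation test gave p = 0.30, 0.10 and 0.10 (adjusted p = 0.30, 0.15 and 0.15), and libraries of clone 1 overlapped with HMC-1.2. In HMC-1.2 the summed CDK4 and CDK6 FPKM ran from 256.7 to 274.5 and overlapped with the D-type cyclin sum of 268.7 to 279.6. In clone 1 it ran from 518.2 to 551.2 FPKM, with a cyclin sum of 181.3 to 190.5.

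Genes whose exons overlap those of a member on the other strand could share reads with it, since the strand setting of the counting is not given in the sources used here. For CDK4 this is TSPAN31, with 1369 shared exon bases. TSPAN31 averaged 16.7 FPKM in HMC-1.2 and rose to 33.2 in clone 1 (log2 fold change 0.86, standard error 0.05, adjusted p = 4.6e-11) and 29.9 in HMC-1.1 (0.73, 0.05, 4.8e-10). In clone 2, where CDK4 rose, TSPAN31 stood at 19.1 FPKM (0.10, 0.05, adjusted p = 0.088). CCND1 shares 497 exon bases with LTO1, whose log2 fold changes of 0.0089, -0.063 and -0.099 in clone 1, clone 2 and HMC-1.1 did not pass (adjusted p = 0.94, 0.60 and 0.38). CDKN2A shares 593 with CDKN2B-AS1, at 0.97 to 1.21 FPKM in all 4 groups. The overlapping antisense genes of CCND2, CCND3, CDK6 and MYC that are in the tables had group means of 0 to 0.173 FPKM.

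Reference sequence upstream of the starts was searched for the E-box CACGTG, which reads the same on both strands. RefSeq promoter entries of GRCh38.p14 were matched for 7 of the 10 genes, and the 250 bases before each start were read, 5′ to 3′ on the strand of the gene. The sequence of CDK4 is shown for its 3 copies, that of CDKN2C for 1 copy before the third of its listed starts, and that of CDKN1B, which rose with CDK4 in clone 1 and HMC-1.1, for having none. Capitals mark the E-box.
CDK4, chr12:57752311-57752560, minus strand: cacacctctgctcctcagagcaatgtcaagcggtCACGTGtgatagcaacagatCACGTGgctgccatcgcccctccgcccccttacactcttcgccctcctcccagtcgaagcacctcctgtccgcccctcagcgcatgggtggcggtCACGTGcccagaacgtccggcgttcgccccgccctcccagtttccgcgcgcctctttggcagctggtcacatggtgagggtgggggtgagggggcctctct
CDKN2C, chr1:50969995-50970244, plus strand: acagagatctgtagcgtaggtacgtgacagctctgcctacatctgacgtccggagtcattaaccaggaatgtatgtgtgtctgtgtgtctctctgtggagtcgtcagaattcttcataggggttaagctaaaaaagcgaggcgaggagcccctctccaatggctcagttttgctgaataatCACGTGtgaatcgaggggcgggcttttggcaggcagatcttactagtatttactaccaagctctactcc
CDKN1B, chr12:12717118-12717367, plus strand: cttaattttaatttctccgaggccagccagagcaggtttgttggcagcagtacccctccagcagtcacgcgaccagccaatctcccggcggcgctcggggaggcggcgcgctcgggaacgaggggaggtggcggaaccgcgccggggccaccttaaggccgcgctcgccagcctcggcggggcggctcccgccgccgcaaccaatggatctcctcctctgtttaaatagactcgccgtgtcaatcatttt
At least 1 E-box was present in 6.34% of the 35116 upstream regions in the table, at least 2 in 0.535% and at least 3 in 0.0797%. Besides these, the first listed start of CDKN2C had 1 copy and the second none, and the letters were not found upstream of the listed starts of CDK6, CDKN2A, CCND3 and RB1. The regions listed for CDK4, CDKN1B, CCND3 and RB1 lie inside the gene spans printed here, so the bases before the outermost annotated start of these genes were not searched. The matches describe the reference sequence and were not tested for binding.

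Of the inhibitors, CDKN1B (p27, chromosome 12, 12685498 to 12722369, plus strand) gave the most distinct groups. HMC-1.2 had 23.1, 23.8 and 23.0 FPKM, clone 2 had 31.4, 30.6 and 31.9, HMC-1.1 had 43.4, 42.2 and 42.4, and clone 1 had 46.3, 47.6 and 46.3. No group overlapped with another. CDKN1B rose 1.93-fold in clone 1 (log2 fold change 0.95, standard error 0.03, adjusted p = 2.8e-13) and 1.77-fold in HMC-1.1 (0.82, 0.03, 2.2e-12). In clone 2 it was higher by 0.40 (standard error 0.03, adjusted p = 3.9e-08), under 1.5-fold, and the log2 value of clone 2 against clone 1 was -0.55 (standard error 0.03, adjusted p = 6.3e-10), also under 1.5-fold.

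CDKN2A (chromosome 9, 21967752 to 21995301, minus strand) encodes both p16INK4a, which binds CDK4 and CDK6, and ARF, which acts on the p53 pathway, and the gene value pools their transcripts. It measured 37.6, 38.2 and 35.2 FPKM in HMC-1.2, below all other libraries. HMC-1.1 had 54.9, 53.4 and 56.1 FPKM, clone 1 had 66, 65.6 and 56.4, and clone 2 had 58.1, 60.0 and 52.1. These last 3 ranges overlapped. CDKN2A rose in clone 1 (log2 fold change 0.65, standard error 0.06, adjusted p = 2.8e-08) and, at the 1.5-fold limit, in clone 2 (0.59, 0.06, 1.4e-07). The call in clone 2 was lost when HMC-1.2 replicate 1 (0.58) or replicate 3 (0.56), or clone 2 replicate 1 (0.57) or replicate 2 (0.56), was left out. In HMC-1.1 its value was 0.57 (standard error 0.06, adjusted p = 1.9e-07), short of 1.5-fold, and it passed without HMC-1.1 replicate 2 (0.59) or HMC-1.2 replicate 2 (0.61).

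CDKN2C (p18, an inhibitor of CDK4 and CDK6, chromosome 1, 50960745 to 50974634, plus strand) was highest in clone 2. It had 14.5, 14.4 and 14 FPKM there, 8.82, 8.5 and 8.2 in HMC-1.2, 10.7, 10.9 and 11.4 in clone 1 and 10.6, 9.95 and 11.5 in HMC-1.1. HMC-1.2 lay below and clone 2 above the other 2 groups, which overlapped. CDKN2C rose in clone 2 (log2 fold change 0.68, standard error 0.06, adjusted p = 1.7e-08), and the values of 0.21 in clone 1 and 0.22 in HMC-1.1 were under 1.5-fold (adjusted p = 0.0044 and 0.0038). Clone 2 exceeded clone 1 by 0.47 (standard error 0.05, adjusted p = 1.6e-06), also under 1.5-fold.

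RB1 (chromosome 13, 48303744 to 48599436, plus strand), the substrate of the D-type cyclin kinases, varied least. It measured 45.4, 43.6 and 46.0 FPKM in HMC-1.2, 42.7, 43.9 and 40.7 in HMC-1.1, 40.9, 39.9 and 41 in clone 1 and 41.8, 40.5 and 43.3 in clone 2. Both clones lay below HMC-1.2, by a narrow margin in clone 2, and HMC-1.1 overlapped with all other groups. Its log2 fold changes of -0.20, -0.13 and -0.13 in clone 1, clone 2 and HMC-1.1 passed the adjusted p (4.4e-05, 0.0026 and 0.0024) and stayed far under 1.5-fold.

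MYC measured 102, 100.2 and 100.9 FPKM in HMC-1.2, 127, 123 and 123 in clone 1, 134, 136 and 139 in clone 2 and 144, 152 and 147 in HMC-1.1. The 4 groups did not overlap. Its log2 fold changes against HMC-1.2 were 0.24 in clone 1 (standard error 0.03, adjusted p = 1.7e-06), 0.43 in clone 2 (0.03, 1.1e-09) and 0.50 in HMC-1.1 (0.03, 1.6e-10), all under 1.5-fold. Clone 2 and HMC-1.1, next to each other in the order, differed by -0.07 on the log2 scale (standard error 0.03, adjusted p = 0.069).

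The order of the groups by mean FPKM differed from gene to gene. HMC-1.2 was the lowest group for CDK4, CDK6, CDKN1B, CDKN2A, CDKN2C and MYC and the highest for CCND1, CCND2 and RB1. Clone 1 and HMC-1.1 were next to each other for 7 of the 10 genes, and in 5 of these (CCND1, CCND3, CDK4, CDK6 and CDKN2C) the pair did not pass the adjusted p. Over all 10 genes, 12 of the 30 pairs of neighbouring groups did not pass it, and 4 passed with more than 1.5-fold between them.

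Listed genes that act beside or after the 10 in the pathway were described by counts. None of 8 genes for the turnover of cyclins, p27 and MYC (among them SKP2 and FBXW7) and none of 8 growth genes known as MYC targets was called against HMC-1.2 in any of the 3 groups. In clone 1, clone 2 and HMC-1.1, 3, 6 and 4 of the turnover genes and 7, 5 and 5 of the MYC targets passed the adjusted p. Of all genes, 20.0%, 16.5% and 17.6% were called and 59.4%, 48.5% and 53.7% passed the adjusted p, in the same order. The median log2 fold change of these MYC targets was -0.17 in clone 1, -0.09 in HMC-1.1 and -0.02 in clone 2, where the medians of all genes were 0.01, 0.01 and -9.1e-05. Between the clones, 7 of the 8 MYC targets passed the adjusted p, all 7 higher in clone 2, with a median of 0.26 (all genes -0.01) and none past 1.5-fold, where 50.2% of all genes passed the adjusted p in either direction.

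Of 8 genes listed as cyclins and kinases of late G1 (among them CDK7, CCNH and CDC25A), those past the adjusted p against HMC-1.2 were all lower. These were 6 in clone 1, 5 in HMC-1.1 and 3 in clone 2 (CCNE1, CDK7 and CCNH). In the same order, 59.4%, 53.7% and 48.5% of all genes passed in either direction. With 1.5-fold required, 2 were called lower in clone 1 and none in clone 2 or HMC-1.1. In the same order, 8.18%, 8.51% and 7.52% of all genes were called lower, and the list medians were -0.18, -0.09 and -0.21. CCNE2, a cyclin E that activates CDK2, averaged 9.24 ± 0.35 FPKM in HMC-1.2, 9.37 ± 0.89 in clone 2, 7.96 ± 0.62 in HMC-1.1 and 5.44 ± 0.35 in clone 1. CDC25A, the phosphatase that activates CDK2, averaged 18.5 ± 0.76, 17.8 ± 0.63, 13.7 ± 0.26 and 11.7 ± 0.48 FPKM in the same order. Both fell in clone 1 (log2 fold changes -0.89 and -0.72, adjusted p = 4.3e-09 and 6.3e-11) and were higher in clone 2 than in clone 1 (0.78 and 0.66, adjusted p = 3.9e-08 and 4.6e-10).

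Among 16 E2F targets of the G1/S step, 3 were called lower in clone 1 and 1 each in clone 2 and HMC-1.1, and none higher. Of all genes, 20.0%, 16.5% and 17.6% were called in clone 1, clone 2 and HMC-1.1, in either direction. CCNE2, already named among the late G1 genes, is also in this list and 1 of the 3 in clone 1. By adjusted p alone, 12, 8 and 10 were lower and 0, 2 and 2 higher in clone 1, clone 2 and HMC-1.1. Of all genes, 59.4%, 48.5% and 53.7% passed it. The list medians were -0.22, -0.11 and -0.16. RRM2, a subunit of ribonucleotide reductase, averaged 133 ± 3.50 FPKM in HMC-1.2, 99.0 ± 1.54 in clone 2, 85.3 ± 3.66 in HMC-1.1 and 71.3 ± 3.41 in clone 1. It fell in clone 1 (log2 fold change -1.05, adjusted p = 4.2e-13) and HMC-1.1 (-0.79, 1.9e-11). TYMS, thymidylate synthase, followed another order, with a mean of 268 ± 11.9 FPKM for HMC-1.2, 254 ± 3.87 for HMC-1.1, 240 ± 5.25 for clone 1 and 135 ± 0.53 for clone 2, where it fell (-1.02, adjusted p = 8.3e-14). CDC6, a replication licensing factor, fell in clone 1 (-0.63, adjusted p = 2.2e-10) and had a log2 fold change of -0.09 in clone 2 (adjusted p = 0.054).

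Other pocket proteins, E2F and DP factors, 12 in all, had 2 genes called higher in clone 1, 2 in HMC-1.1 and 3 in clone 2, and none lower. Of all genes, 11.8%, 10.1% and 7.98% were called higher in the same order. E2F5, a repressive E2F, averaged 2.99 ± 0.49 FPKM in HMC-1.2 and 5.78 to 6.62 FPKM in the other groups, with log2 fold changes of 1.19, 1.07 and 1.01 in clone 1, clone 2 and HMC-1.1. TFDP2, a partner of the E2Fs, averaged 33.3 ± 2.27 FPKM in HMC-1.2 and 57.1 to 68.1 elsewhere (1.03, 0.85 and 0.98). E2F7, another repressor, rose in clone 2 (0.68, standard error 0.06, adjusted p = 1.2e-07) and, under 1.5-fold, in HMC-1.1 (0.41, adjusted p = 4.2e-05). Clone 1 differed from HMC-1.2 by 0.07 for E2F7 (adjusted p = 0.36). The medians of this list were -0.23, -0.12 and -0.12, so most of its members lay below 0. Of the 4 other kinase inhibitors, CDKN2D (p19) alone was called, lower in clone 2 (log2 fold change -0.74, standard error 0.09, adjusted p = 1.7e-06), where 8.51% of all genes were called lower. It was also lower in clone 1 (-0.48, adjusted p = 0.00012) and HMC-1.1 (-0.58, adjusted p = 2.0e-05), under 1.5-fold. Clone 2 against HMC-1.1 did not pass for CDKN2D (-0.15, adjusted p = 0.19).

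The partners and relatives of MYC moved in both directions. Of 10, 1 was called higher and 2 lower in clone 1, 1 higher and 3 lower in clone 2, and 1 higher and 2 lower in HMC-1.1, with medians of -0.11, -0.12 and 0.09. In the same order, 20.0%, 16.5% and 17.6% of all genes were called in either direction. MYCN, a paralog of MYC, averaged 4.97 ± 0.35 FPKM in HMC-1.2, 1.19 ± 0.22 in clone 1, 1.15 ± 0.21 in HMC-1.1 and 0.687 ± 0.055 in clone 2, with log2 fold changes of -2.07, -2.11 and -2.84 (adjusted p = 1.1e-09, 1.1e-09 and 4.4e-11). MYCL, the third paralog, went the other way, with a mean of 5.44 ± 0.40 FPKM for HMC-1.2, 15.7 ± 0.30 for clone 1, 13.4 ± 0.12 for HMC-1.1 and 11 ± 0.51 for clone 2 (log2 fold changes 1.45, 1.25 and 1.00). In every group the level of MYC itself was the highest of the 3 paralogs (124 FPKM in clone 1, 136 in clone 2). MXD3, an antagonist that pairs with MAX, fell in all 3 groups (-0.97, -1.12 and -0.95 in clone 1, clone 2 and HMC-1.1), and MAX, the partner MYC needs to bind DNA, fell in clone 2 (-0.63, adjusted p = 9.5e-12) from 271 ± 2.60 to 199 ± 11.5 FPKM.

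**Figure D4:**
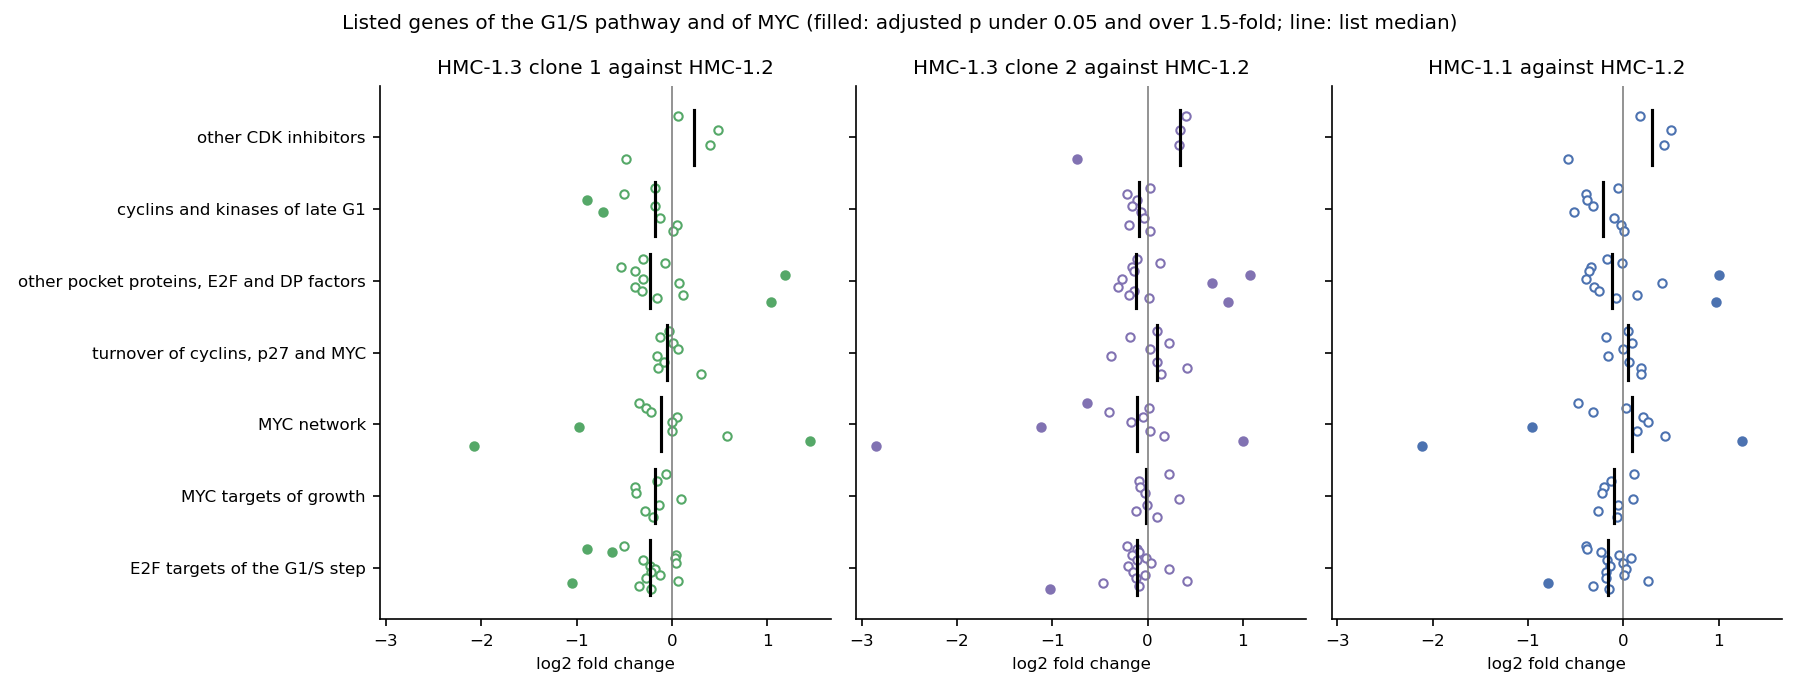
Log2 fold change against HMC-1.2 (x axis) of each tested gene of 7 lists (y axis) in clone 1, clone 2 and HMC-1.1, with filled circles for genes past an adjusted p of 0.05 and 1.5-fold and a black line at the median of each list. The lists centre within 0.34 of 0 on the log2 scale, and the farthest circle is MYCN at -2.84 in clone 2.

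Genes that start within 1 Mb of a member were used to see whether a member moved with its surroundings. All 12 tested neighbours of CDK6 lay below it in each of the 3 comparisons, with medians of -0.01, 0.07 and 0.07 in clone 1, clone 2 and HMC-1.1. Of these, 1 was called higher in clone 2, where 7.98% of all genes were, and none was called in clone 1 or HMC-1.1. All 13 neighbours of CCND1 lay above it in clone 1 and HMC-1.1 (medians -0.11 and -0.11), and 11 of 13 in clone 2 (median -0.19). Called lower were 1 of the 13 in clone 1, 1 in HMC-1.1 and 2 in clone 2, and none was called higher. The shares of all genes called lower were 8.18%, 7.52% and 8.51%, in the same order. Of 13 neighbours of CDKN1B, 12 lay below it in clone 1, 13 in HMC-1.1 and 11 in clone 2. Of these 13, 3 were called higher in clone 1, 3 higher and 1 lower in HMC-1.1, and 2 higher and 2 lower in clone 2. In the same order, 20.0%, 17.6% and 16.5% of all genes were called in either direction. All 5 neighbours of CDKN2A lay below it in each comparison. For CCND2, CCND3, CDKN2C, RB1 and MYC, with 10, 31, 6, 11 and 1 tested neighbours, the medians ran from -0.21 to 0.11.

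Of the 38 tested neighbours of CDK4, 7 were called higher and 3 lower in clone 1 (median 0.33), 7 and 3 in HMC-1.1 (median 0.24) and 5 and 5 in clone 2 (median -0.04), where 20.0%, 17.6% and 16.5% of all genes were called in either direction, and 34, 34 and 33 of them lay below CDK4. Split at the start of CDK4, a choice made after the values were seen, the 11 neighbours at higher coordinates, up to 180 kb away, had a median of 0.53 in clone 2, with 10 of them above 0, whereas the 27 at lower coordinates had a median of -0.13, with 8 above 0. The same medians were 0.34 and 0.29 in clone 1 and 0.42 and 0.16 in HMC-1.1. DNA copy number was not measured in these libraries.

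**Figure D5:**
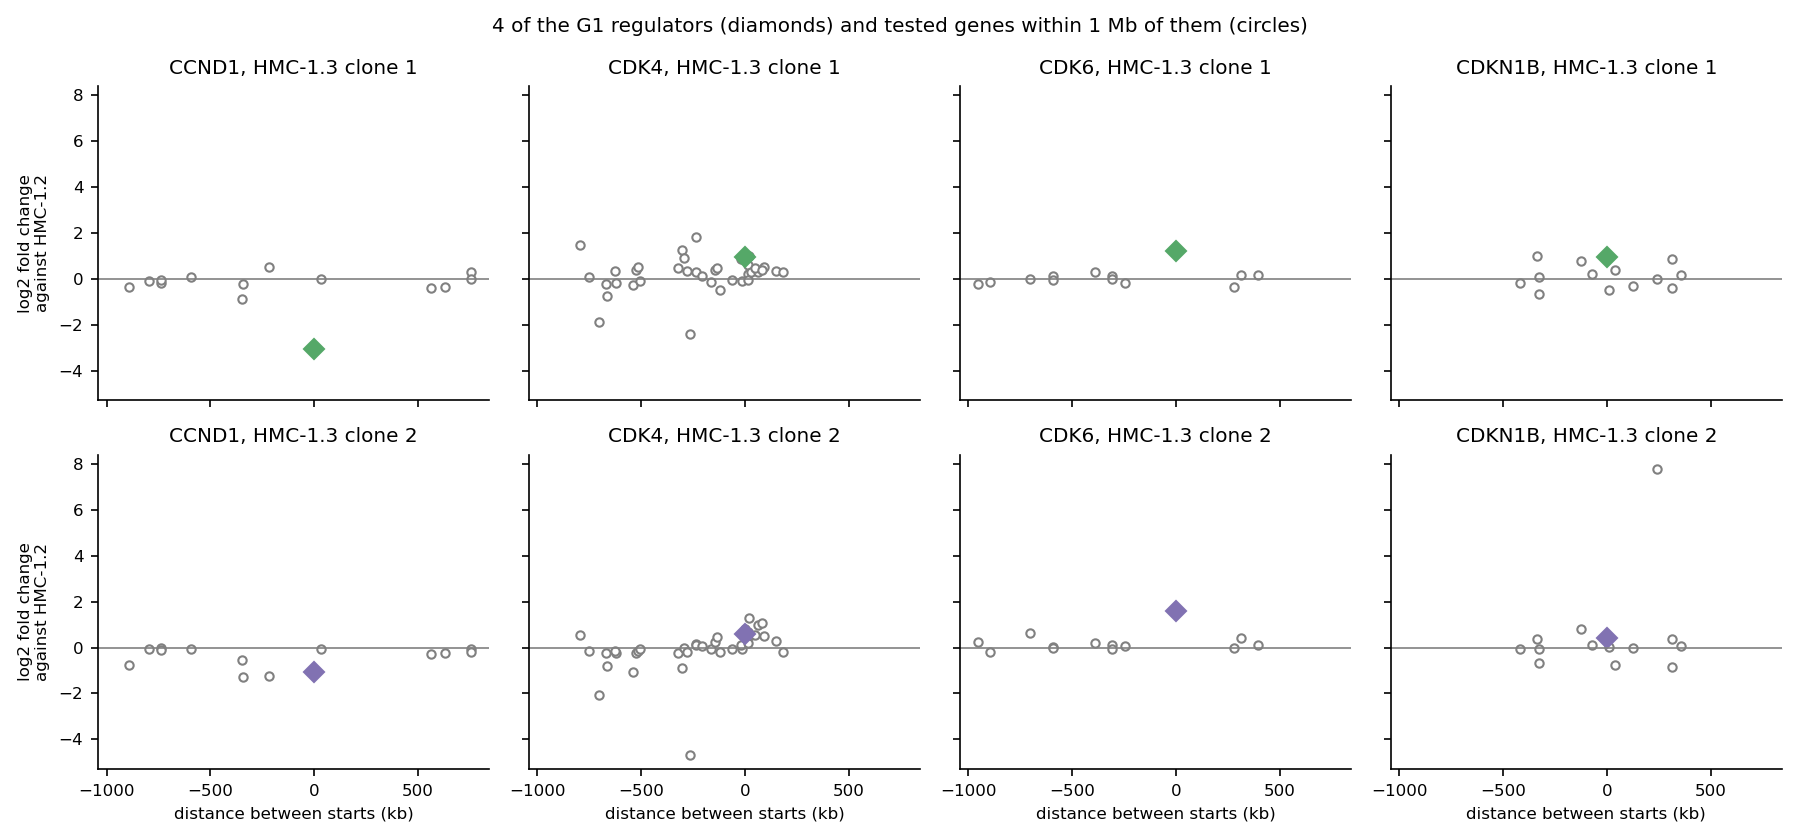
Log2 fold change against HMC-1.2 (y axis) of CCND1, CDK4, CDK6 and CDKN1B (diamonds) and of tested genes that start within 1 Mb (circles), by the distance between starts in kb (x axis), for clone 1 (top row) and clone 2 (bottom row). CDK6 lies above and, in clone 1, CCND1 below every circle, and the circles to the right of CDK4 in clone 2 lie above 0 in 10 of 11 cases.

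The log2 CPM (counts scaled to library totals adjusted by TMM) served as a description without a test, since the libraries share 4 groups. The genes that followed a member most closely over the 12 libraries were taken from all 15944 genes. They were GLI2 and DAPK3 for CCND1 (Pearson's r of 0.990 for both), IL4I1 and MSX2 for CCND3 (0.990 and 0.988) and TBC1D15 and PAIP2B for CDK4 (0.995 for both). ZNF462 was among those closest to CDK6 (0.995), and for CDKN1B they were BBC3 and SERPINB6 (0.997 and 0.994). CDKN2A was followed most closely by TIMMDC1 and M6PR (0.989 and 0.988) and CDKN2C by RPRD1A and PARD6G (0.985 and 0.982).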

How the data were processed

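RNA from 12 HMC-1 cultures (3 libraries in each of 4 groups) was made into stranded mRNA libraries and read in pairs. Per the labels and the methods of the study, the authors trimmed reads with cutadapt 2.10, aligned them to hg38 (Gencode release 39) with STAR 2.5.3, marked duplicates with Picard and counted genes with RSEM 1.3.0. The authors deposited expected counts (estimates of reads per gene, 7.39% of them not whole) and FPKM for 58381 genes. Expected counts were rounded, scaled by TMM, filtered with filterByExpr and fitted for all 12 libraries with edgeR 4.0.16 in R 4.3.3 (glmQLFit and glmQLFTest), and p-values were adjusted by Benjamini-Hochberg over 15944 genes for each of 6 comparisons. FPKM values served for levels and for shares of summed FPKM, which were compared by an exact two-sided permutation test. DESeq2 1.42.0, limma 3.58.1 on log2(FPKM + 1) and log2(FPKM + 0.1), glmTreat against 1.5-fold, RLE factors, no filter, fits of 2 groups, a replicate block, the removal of each library and the removal of the 3 libraries labelled as resent were tried as alternatives. Positions and exon overlaps came from Gencode release 44 on GRCh38, in which 99.0% of the gene identifiers were found. Replicate libraries of a group differed by more than sampling noise (chi-square per degree of freedom of 2.83 to 7.67). Total counts were 29225900 to 43181402 per library, and members with few reads, such as CCND1 and CDK6, are the least precise.

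The genes and lists were chosen with earlier results of these data known. Members were named with every library's value, and each list by counts and up to 4 genes with the largest absolute log2 fold change among those called against HMC-1.2. KIT and GATA2 were also named, to check the cell type, and SKP2, FBXW7, CCNE1, CDK7 and CCNH, to show what their lists hold. For each called member, 2 genes with the highest correlation were named, except for CDK6, where 1 is not reported here, and of genes within 1 Mb only those whose exons overlap a member.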

Additional observations from a re-analysis of the deposited data

Results flagged for a closer look

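The effect against HMC-1.2 differed by over 1.5-fold between the HMC-1.3 clones for 2 of the 10 genes, where 12.6% of all genes were called. The criterion was the direct comparison of clone 2 with clone 1 (quasi-likelihood test of edgeR, Benjamini-Hochberg adjusted p under 0.05). By the adjusted p alone, 8 of the 10 genes differed between the clones, as did 50.2% of all genes. For CCND1 the log2 fold change of clone 2 minus that of clone 1 was 1.97 (adjusted p = 3.7e-11), with all 3 libraries of clone 2 (4.04 to 5.07 FPKM) above all 3 of clone 1 (1.18 to 1.65 FPKM). For CCND3 it was 0.60 (adjusted p = 6.9e-10), with 229 to 242 FPKM in clone 2 and 153 to 160 in clone 1. The first was called under all 15 alternatives and the second lay at the 1.5-fold limit and was lost in 6 of them. Groups had 3 libraries, too few to test for single outlying libraries.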

How the results depend on the processing

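Of 60 log2 fold changes (10 genes in 6 comparisons), 49 kept their direction and call under all 15 alternatives. The 4 that reversed had main values of at most 0.016 in size and no call. CCND3 in clone 2 against HMC-1.2 became -0.0014 with RLE factors, -0.0095 without the libraries labelled as resent, and -0.017 to 0.024 with 1 library left out. CDKN2C in clone 1 against HMC-1.1 became 0.042 and 0.046 with limma on log2(FPKM + 1) and log2(FPKM + 0.1), and -0.050 to 0.034 with 1 library left out. RB1 in clone 2 against HMC-1.1 became 0.0031 with DESeq2, 0.0020 with RLE factors, 0.0022 without the filter, and -0.019 to 0.028 with 1 library left out. CDKN2A in clone 2 against HMC-1.1 became -0.0039 without the resent libraries and -0.0093 to 0.067 with 1 library left out.

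The number of the 10 genes called in clone 2 against HMC-1.2 fell from 5 to 2 with glmTreat, CDK4, CDKN2A and CDKN2C being lost. CDKN2A in clone 2 was also lost with RLE factors (0.585) and without the resent libraries (0.57). In clone 1, CCND3 was lost with both limma fits (-0.54 each) and glmTreat, and CDKN2A with glmTreat. Between the clones it went from 2 to 1, CCND3 being lost, with both limma fits, glmTreat, without the resent libraries and with 1 library left out (1 to 2 called). Counts of all called genes fell with limma on log2(FPKM + 1) and with glmTreat to 1837 and 1932 (from 3193) in clone 1, 1380 and 1612 (from 2630) in clone 2 and 1440 and 1618 (from 2803) in HMC-1.1, each against HMC-1.2, to 943 and 837 (from 2013) between the clones, and to 62 and 9 (from 161) in clone 1 and 547 and 552 (from 1306) in clone 2 against HMC-1.1. Clone 1 against HMC-1.1 also gave 95 with DESeq2, 99 with limma on log2(FPKM + 0.1) and 107 to 197 with 1 library left out (107 without clone 1 replicate 2), and clone 2 against HMC-1.1 gave 822 with limma on log2(FPKM + 0.1). glmTreat tests against 1.5-fold itself, and for the other settings the cause was not tested.

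Of 18 pairs of libraries with the same replicate number, 9 correlated above 0.1 (from -0.17 to 0.24). The median r was 0.083 for pairs with the same number and -0.042 for pairs with different numbers. Whether the replicate numbers pair the samples was not tested. With the replicate number as a block, 6, 5 and 4 of the 10 genes were called in clone 1, clone 2 and HMC-1.1 against HMC-1.2, 2 between the clones, and 0 and 1 in clone 1 and clone 2 against HMC-1.1, and no count of calls moved by over 1.5 times. Shares cannot pass 0.05 at 3 against 3 libraries. CDK6 and CCND1 had the largest standard errors (up to 0.11 on the log2 scale), which limits their precision most.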
